A study of Mus musculus with 5 samples.

Results

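The type 2 cytokine locus was taken as the stretch of mouse chromosome 11 that holds Il5, Rad50, Il13, Il4 and Kif3a, from 10 kb outside Il5 to 10 kb outside Kif3a (mm10, chr11:53557379-53735106, 177.7 kb, GENCODE M21 genes). It held 19 of the 124158 merged H3K27ac peaks of the series. Each of the 19 peaks was assigned to the protein-coding gene with the nearest transcription start site (TSS). The peaks were profiled by CUT&Tag, in which an antibody guides a transposase to the acetylated histone so that the DNA beside it can be sequenced. Treg cells (YFP+ CD3+ CD4+) of the large intestine of C57BL/6 mice aged 2 weeks were compared between Ctrl (Foxp3-Cre-YFP with 1 floxed and 1 normal Setd2 allele) and KO (Foxp3-Cre-YFP with both Setd2 alleles floxed), with 2 libraries per group. The Ctrl libraries are titled WT in the series, but by their genotype they are heterozygous and carry the same Cre as KO. Setd2 encodes the methyltransferase that places H3K36me3, and the Cre is driven by Foxp3, so the deletion is limited to cells that express it. Each library came from about 60000 sorted cells pooled from 3 to 5 littermates, of females and males together. A group therefore holds 2 pools. In the edgeR test used below, the p-values and intervals of a peak rest on a spread between pools estimated over all tested peaks, not at that peak alone. For gene sums, the spread of each gene was likewise drawn toward that of all genes.

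In helper T cells, Il4, Il13 and Il5 form one regulated unit. Rad50, which encodes a part of the DNA break repair complex that also holds Mre11 and Nbn, lies between Il13 and Il5, and its 3′ introns hold the locus control region that acts on the cytokine promoters. Gata3 and Stat6 are the best known factors that open the locus in Th2 cells. Kif3a, which encodes a kinesin motor subunit used in cilia, flanks the cytokines on the other side. H3K27ac marks active promoters and enhancers.

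The marks of the sorted cells were as follows. Library totals were 2395002 and 3630447 counts in Ctrl and 3007444 and 4712473 counts in KO. All 8 Treg cell markers had a promoter peak, with summed levels of 969 to 1450 CPM (counts per 1000000 counts, after TMM scaling), whereas none of the 5 mast cell and basophil markers, including Kit and Cpa3, had one. The Treg list includes Cd4 and Cd3e, which conventional CD4 T cells also carry. No list covered those cells, so the sums do not tell Treg cells from them. Promoter peaks were present for 2 of 4 B cell markers (11.3 to 20.1 CPM in sum), 2 of 4 myeloid markers (12.5 to 33.9 CPM), 1 of 2 CD8 T cell markers (4.17 to 8.6 CPM) and 4 of 4 epithelial markers (14.0 to 21.1 CPM). For eosinophils, 1 of 3 markers, Siglecf, had a peak, at 6.33 and 3.57 CPM in Ctrl and 0.745 and 0.958 CPM in KO. Both KO libraries were lower, as in 16.4% of all tested peaks. At these levels the KO libraries fell below the minimum count for testing, so the peak could be tested only through the Ctrl libraries. Its place among the tested peaks with lower KO therefore depends on the group in which it was higher. The Siglecf signal is a single peak at a low level, against a median of 11.5 CPM for tested peaks within 3 kb of a TSS. Whether other cell types had a part in the values at the locus was not tested, and in such bulk samples fewer acetylated cells and less acetylation per cell cannot be told apart. The H3K27ac sum of Setd2 itself was 29.4 and 31.8 CPM in Ctrl and 31.7 and 38.6 CPM in KO, and acetylation at its peaks is no check of the deletion.

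The 19 peaks of the locus covered 12035 bp, or 6.77% of the window against 3.75% of all chromosomes, and had a median width of 415 bp against 477 bp for all peaks. Their summed level was 102 and 114 CPM in Ctrl and 116 and 99.9 CPM in KO, a mean of 108 ± 8.3 (SD, n = 2) against 108 ± 11.6 (SD, n = 2). The groups overlapped, and the means differed by less than the spread within either group. The sums rest on 226 and 383 counts in Ctrl and 312 and 417 counts in KO, and the locus held between 0.00885% and 0.0105% of all counts in each library.

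**Figure D1:**
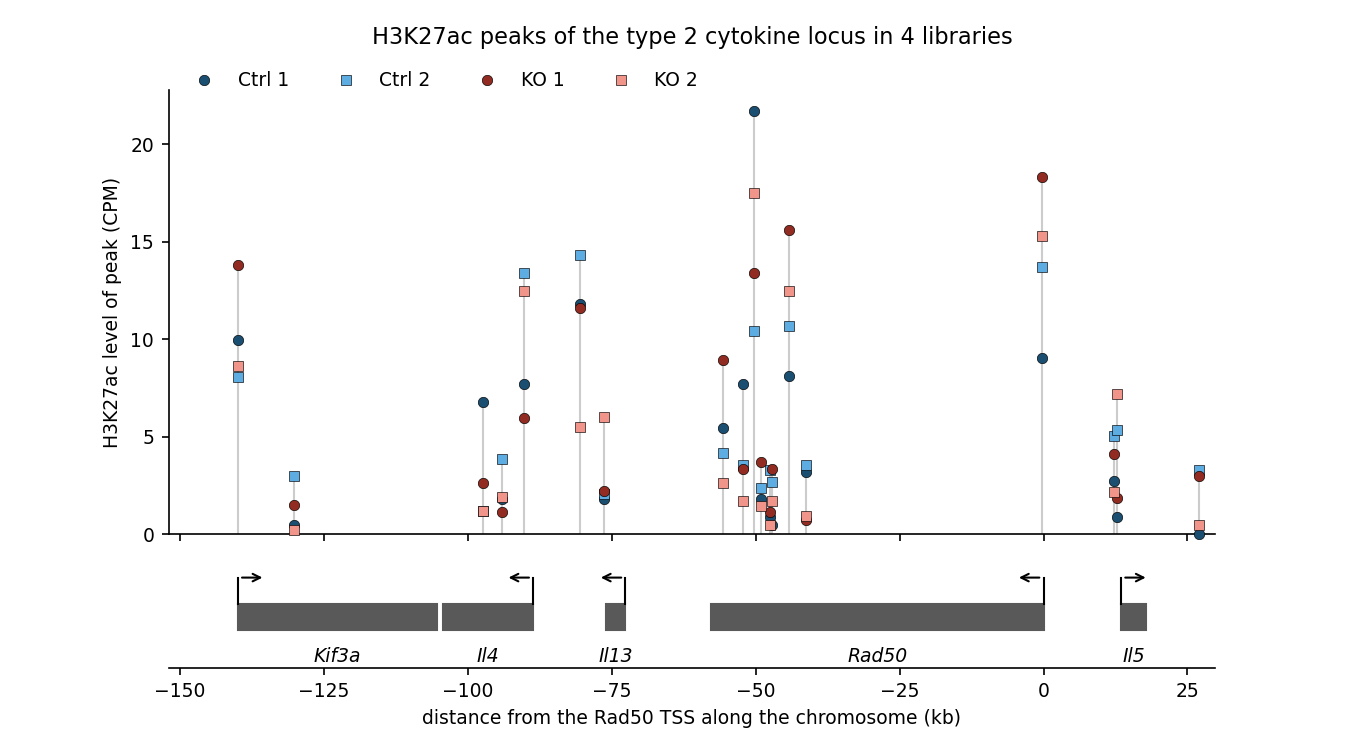
Level of each of the 19 peaks (CPM, upper panel) in the 4 libraries against its distance in kb from the Rad50 TSS along the chromosome, with the genes as bars and their direction as arrows (lower panel). Circles are replicate 1 and squares replicate 2, with Ctrl in blue and KO in red. The peaks gather at the promoters of Kif3a and Rad50, across Il4, and in a run of 8 peaks in the 3′ part of Rad50, and no library has a peak above 21.7 CPM.

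Between the peaks lay long stretches in which no peak had been called. The longest was 40.48 kb inside Rad50, between the last peak of its 3′ part and its promoter. Another of 32.59 kb ran from an intron of Kif3a to Il4. A gap of 19.85 kb, from just past the 3′ end of Il13 to the 3′ part of Rad50, held the whole of Il13 with its promoter. No peak overlapped the span of Il13 or of Il5, and none lay within 3 kb of the Il13 TSS. A stretch without a merged peak is one in which the peak caller found none in these libraries, and acetylation below its threshold cannot be seen in the table.

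The sequences of 5 windows of 200 bases set the promoter peak of Rad50 beside other peaks of the locus. The capitals mark matches, on either strand, to the letters bound by GATA factors, AP-1, STAT or Runx. The letters are A or T, then GATA, then A or G for GATA factors, and TGANTCA for AP-1. They are TTC and GAA with 3 or 4 bases between them for STAT, and TGTGGT for Runx. The windows were read from GRCm38.p6, the same assembly as mm10, and are written 5′ to 3′ on the plus strand. Each lies about the centre of its peak or, at Rad50 and Il4, at the nearest stretch to the centre without an annotated untranslated base. The first is the promoter peak of Rad50 (chr11:53706856-53707055, coding end of exon and intron), the next the promoter peak of Il4 (chr11:53616881-53617080), then the highest peak in the 3′ part of Rad50 (chr11:53657001-53657200, intron), the highest peak between Il13 and Kif3a (chr11:53626691-53626890, between Il4 and Il13) and the peak with the smallest p (chr11:53654993-53655192, at an exon of Rad50).
Rad50 promoter peak: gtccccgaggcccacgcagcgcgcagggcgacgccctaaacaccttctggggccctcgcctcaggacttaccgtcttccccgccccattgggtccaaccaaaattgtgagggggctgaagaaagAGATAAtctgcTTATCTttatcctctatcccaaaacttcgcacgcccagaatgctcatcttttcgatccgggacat
Il4 promoter peak: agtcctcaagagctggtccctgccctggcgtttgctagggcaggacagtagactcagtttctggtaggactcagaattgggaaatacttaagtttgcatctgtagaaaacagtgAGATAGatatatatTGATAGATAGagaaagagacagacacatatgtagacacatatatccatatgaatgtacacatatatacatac
Rad50 intron peak, highest of the 3′ part: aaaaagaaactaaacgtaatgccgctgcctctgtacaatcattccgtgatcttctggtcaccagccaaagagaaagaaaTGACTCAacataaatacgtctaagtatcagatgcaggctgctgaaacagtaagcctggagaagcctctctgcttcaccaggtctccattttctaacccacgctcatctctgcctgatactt
Peak between Il4 and Il13: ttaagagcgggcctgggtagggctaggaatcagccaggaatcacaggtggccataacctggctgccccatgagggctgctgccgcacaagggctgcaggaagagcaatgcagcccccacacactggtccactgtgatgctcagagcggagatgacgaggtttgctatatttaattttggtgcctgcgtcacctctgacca
Rad50 exon peak, smallest p: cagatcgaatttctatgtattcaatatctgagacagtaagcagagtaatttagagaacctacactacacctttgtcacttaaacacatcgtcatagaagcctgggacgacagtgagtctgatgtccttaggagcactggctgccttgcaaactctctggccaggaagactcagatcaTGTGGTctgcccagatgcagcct

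The Rad50 window held 2 GATA matches, AGATAA and its reverse complement TTATCT, that face each other 5 bases apart. Both lie in the coding bases of the Rad50 exon, inside the gene, and not upstream of its TSS. The Il4 window held 3 GATA matches, of which 2 overlap. The highest Rad50 intron peak held 1 AP-1 match, TGACTCA, the peak between Il4 and Il13 held none of these letters, and the Rad50 exon peak held 1 Runx match. Over windows of the same length about the centres of all 74550 tested peaks, a GATA match was present in 25.4%, AP-1 in 6.45%, STAT in 9.56%, Runx in 16.9% and the NFAT core GGAAA in 44.0%. About the centres of the 19 locus peaks, GATA was present in 6, AP-1 in 1, STAT in 1, Runx in 2 and GGAAA in 9. Of these 19, only 10 are among the tested peaks of the background. In those 10, GATA was present in 4, AP-1 in 1, STAT in 0, Runx in 1 and GGAAA in 2. These are letter matches and do not show that a factor is bound.

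The promoter peaks of the locus differed in base composition. The Rad50 promoter peak held 9.45 CpG per 100 bases with 64.4% G and C, and the Kif3a promoter peak held 7.49 with 63.4%. The Il4 promoter peak held 1.09, and the peaks upstream of Il5 held 0.98 and 0.248, against a median of 2.82 for all 17669 tested peaks within 3 kb of a TSS and 1.03 for the other 56881. The promoter peaks of Rad50 and Kif3a, which cover the TSS at the 5′ end of the gene, were thus CpG-rich. Those of Il4 and Il5 lay under the promoter median, but they do not cover that TSS of their gene. The peaks in the 3′ part of Rad50 ranged from 0.548 to 2.37 CpG per 100 bases.

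Of the 19 peaks, 10 had at least 10 counts in at least 2 libraries and entered the test of KO against Ctrl, which was edgeR's quasi-likelihood test with Benjamini-Hochberg adjustment over the 74550 peaks of the genome that passed. None of the 10 passed at an adjusted p under 0.05 (all 0.998), where 0.00134% of all tested peaks did, and none had an unadjusted p under 0.05, where 4.24% of all did. By point estimate, 5 were higher and 5 lower in KO, against 49.2% higher among all tested peaks. The median log2 fold change of the 10 was 0.11, against -0.01 over all. In 4 of the 10 the groups did not overlap, against 33.3% of all tested peaks. KO was higher in 2 of these and lower in 2, against 16.9% and 16.4% of all. The DESeq2 test and the other settings gave no locus peak at an unadjusted p under 0.05 either.

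The cytokine genes come first. Upstream of Il5, the growth and survival factor of eosinophils, lay 2 tested peaks. The nearer (chr11:53719939-53720341, 453 bp from the TSS) was at 0.905 and 5.36 CPM in Ctrl and 1.86 and 7.19 CPM in KO. In both groups replicate 2 was the higher, and the groups overlapped, with a log2 fold change of 0.5 (SE 0.82, 95% interval -1.11 to 2.1, edgeR adjusted p = 0.998). The farther (chr11:53719296-53719703, 1091 bp from the TSS) was at 2.71 and 5.06 CPM in Ctrl and 4.1 and 2.16 CPM in KO, and the groups overlapped (log2 fold change -0.36, SE 0.91). Beyond the gene, the last peak of the window was at 0, 3.27, 2.98 and 0.479 CPM, in the order Ctrl 1, Ctrl 2, KO 1 and KO 2, and was too low to be tested. The window's edge cuts this side short, since a peak with 6, 22, 16 and 43 counts in the same order starts 3 bp outside it.

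Il13, whose product acts on epithelium and smooth muscle, had no promoter peak. The nearest tested peak (chr11:53626112-53627468, 1357 bp wide) lay between Il13 and Il4, 7234 bp from the Il13 TSS. It was at 11.8 and 14.3 CPM in Ctrl and 11.6 and 5.51 CPM in KO, a mean of 13.0 ± 1.78 against 8.53 ± 4.27 (SD, n = 2 each). Both KO libraries were lower, though KO 1 lay only just under Ctrl 1. The log2 fold change was -0.65 (SE 0.51, 95% interval -1.64 to 0.35, edgeR adjusted p = 0.998), and it was -0.21 without KO 2 and -1.26 without KO 1. A smaller peak just past the 3′ end of Il13 was at 1.81 and 2.08 CPM in Ctrl and 2.24 and 5.99 CPM in KO and did not pass the filter.

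At Il4, the cytokine that starts Th2 differentiation, 3 peaks lay across the gene. The promoter peak (chr11:53616600-53617606) covered the TSS of one annotated transcript. It lay inside the gene and did not reach the TSS at the 5′ end of Il4 (chr11:53618669), which no peak covered. This promoter peak was at 7.69 and 13.4 CPM in Ctrl and at 5.96 and 12.5 CPM in KO. The difference between replicates was larger than that between groups, and the log2 fold change was -0.19 (SE 0.51, 95% interval -1.2 to 0.82). The 2 intron peaks of Il4 were untested, at 6.79 and 1.19 CPM in Ctrl against 2.61 and 1.2 CPM in KO, and at 1.81 and 3.87 CPM in Ctrl against 1.12 and 1.92 CPM in KO.

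The Rad50 promoter peak (chr11:53706702-53707389) had the highest level per length of the locus, 20.5 CPM per kb of peak, above 89.3% of all tested peaks within 3 kb of a TSS. It was at 9.05 and 13.7 CPM in Ctrl and at 18.3 and 15.3 CPM in KO, a mean of 11.4 ± 3.28 against 16.8 ± 2.07 (SD, n = 2 each). Both KO libraries were above both Ctrl libraries. The log2 fold change was 0.54 (SE 0.45, 95% interval -0.35 to 1.43, edgeR adjusted p = 0.998), and it was between 0.28 and 0.89 when 1 library was left out.

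The 3′ part of Rad50, the stretch where the locus control region is known to lie, held 8 peaks within 15.1 kb (chr11:53651169-53666221). Their summed level was 49.3 and 40.8 CPM in Ctrl and 50.3 and 38.8 CPM in KO, a mean of 45.0 ± 6.04 against 44.6 ± 8.12 (SD, n = 2 each). In both groups replicate 1 was the higher, and the groups overlapped. These peaks held 42.0% ± 8.81 of the locus counts in Ctrl and 41.1% ± 3.13 in KO, more than any promoter of the locus. Of their 4 tested peaks, 2 were higher and 2 lower in KO by point estimate.

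The highest of them, and the highest peak of the locus by mean level, was an intron peak 50.2 kb into Rad50 from its TSS (chr11:53656269-53657931, 1663 bp wide). It was at 21.7 and 10.4 CPM in Ctrl and 13.4 and 17.5 CPM in KO, with both KO libraries between the Ctrl libraries. Its mean over the 4 libraries, 15.8 CPM, lay above 86.8% of the tested peaks further than 3 kb from a TSS, and its log2 fold change was -0.02 (SE 0.44, 95% interval -0.88 to 0.83). The next highest, 44.1 kb into Rad50 (chr11:53662748-53663622), was at 8.14 and 10.7 CPM in Ctrl and 15.6 and 12.5 CPM in KO. Both KO libraries were the higher, and the log2 fold change was 0.55 (SE 0.49, 95% interval -0.4 to 1.51, edgeR adjusted p = 0.998). Per kb of peak its level was 13.4 CPM, above 91.2% of tested peaks further than 3 kb from a TSS.

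The peak at an exon 52.2 kb into Rad50 (chr11:53654882-53655303), whose sequence is printed for its smallest p, went the other way. It was at 7.69 and 3.57 CPM in Ctrl and 3.35 and 1.68 CPM in KO. Both KO libraries were lower, but Ctrl 2 and KO 1 were nearly equal, and the log2 fold change was -1.16 (SE 0.86, 95% interval -2.85 to 0.53, unadjusted p = 0.177 and edgeR adjusted p = 0.998). Its counts were 17, 12, 9 and 7 in the order Ctrl 1, Ctrl 2, KO 1 and KO 2, and it passed the filter only through the Ctrl libraries, so its place among the tested peaks and among those whose groups did not overlap depends on the group in which it was higher. The fourth tested peak, 55.7 kb into Rad50 (chr11:53651169-53652135), had a log2 fold change of 0.24 (SE 0.71). Of the 4 untested peaks of this stretch, 3 had overlapping groups. The other, 41.3 kb into Rad50, was at 3.17 and 3.57 CPM in Ctrl and 0.745 and 0.958 CPM in KO, which rest on 7, 12, 2 and 4 counts.

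At the far end, the Kif3a promoter peak (chr11:53566966-53567860) was at 9.95 and 8.04 CPM in Ctrl and 13.8 and 8.63 CPM in KO. The groups overlapped, and the log2 fold change was 0.31 (SE 0.52, 95% interval -0.71 to 1.33). An intron peak of Kif3a, 9356 bp from the TSS, rested on 1, 10, 4 and 1 counts in the order Ctrl 1, Ctrl 2, KO 1 and KO 2. The Kif3a gene shares this promoter region with the noncoding A430108G06Rik, which starts in the opposite direction, so that the acetylation of the 2 cannot be told apart.

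**Figure D2:**
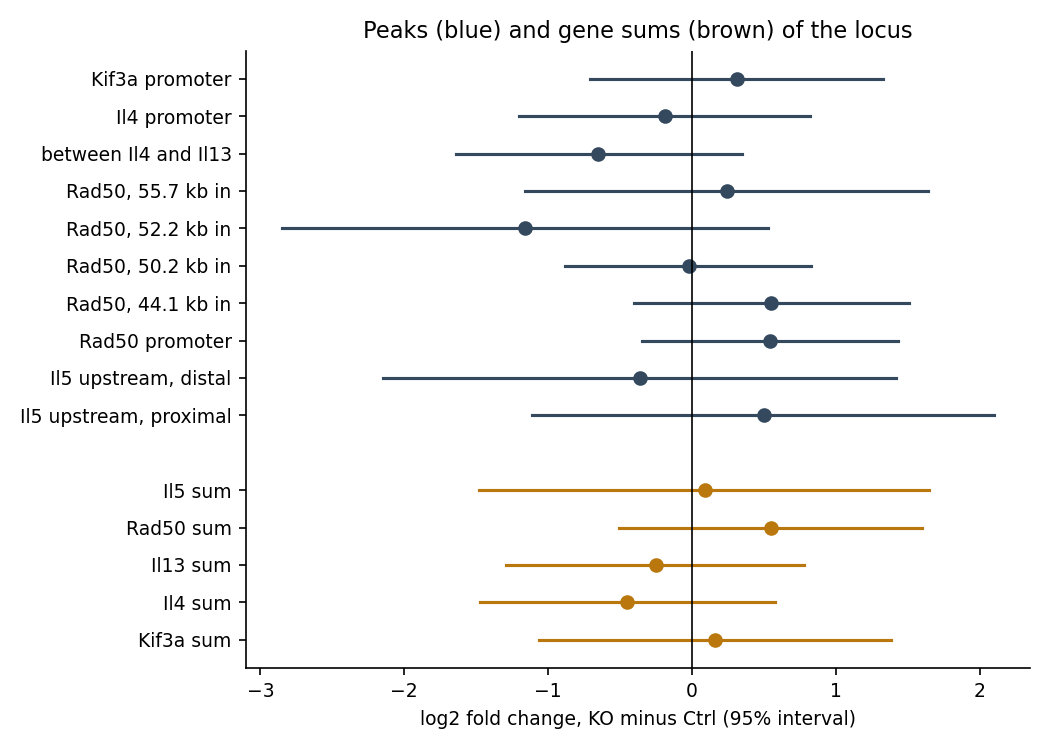
Log2 fold change of KO against Ctrl on the x axis, with 95% intervals as lines, for the 10 tested peaks of the locus from Kif3a to Il5 (blue) and for the sums of the 5 genes (brown). Every interval spans 0, and the widths run from an SE of 0.44 to 0.91.

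Counts were also summed per gene, over the peaks nearest to its TSS and within 10 kb of its span, and tested over 12974 genes. The Il5 sum was 3.62 and 13.7 CPM in Ctrl and 8.94 and 9.82 CPM in KO. Both KO libraries lay between the Ctrl libraries, and the log2 fold change of 0.09 (SE 0.7, 95% interval -1.48 to 1.65) became -0.55 without Ctrl 1 and 1.37 without Ctrl 2. The Il13 sum of 2 peaks was 13.6 and 16.4 CPM in Ctrl and 13.8 and 11.5 CPM in KO, and the groups overlapped (log2 fold change -0.25, SE 0.47, 95% interval -1.29 to 0.78). The Il4 sum was 16.3 and 18.5 CPM in Ctrl and 9.69 and 15.6 CPM in KO. Both KO libraries were lower, and the log2 fold change of -0.45 (SE 0.46, 95% interval -1.47 to 0.58) was -0.18 without KO 1. The Rad50 sum was that of its promoter peak, with a log2 fold change of 0.55 (SE 0.47, 95% interval -0.51 to 1.6). The Kif3a sum was 10.4 and 11 CPM in Ctrl and 15.3 and 8.87 CPM in KO, with a log2 fold change of 0.16 (SE 0.55, 95% interval -1.06 to 1.38) that became -0.29 without KO 1.

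None of the 5 gene sums passed at an adjusted p under 0.05 (all 0.999), where 0.0% of all genes did, and none had an unadjusted p under 0.05 in edgeR, where 2.98% did, or in DESeq2. By point estimate 3 were higher in KO, against 49.1% of all genes, and 2 had groups that did not overlap, against 30.3% of all genes. The 8 peaks in the 3′ part of Rad50 belong to no gene under the 10 kb limit, since the nearest TSS is that of Il13. Without the limit, a choice made after seeing the data, Il13 held 10 peaks with 62.9 and 57.1 CPM in Ctrl and 64.1 and 50.3 CPM in KO (log2 fold change -0.07, SE 0.27, 95% interval -0.68 to 0.54). When peaks were instead given to the gene whose body or promoter they lie in, Rad50 held 9 peaks with 58.4 and 54.5 CPM in Ctrl and 68.6 and 54.1 CPM in KO (log2 fold change 0.12, SE 0.27, 95% interval -0.49 to 0.72).

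Within the locus, the distribution of counts over the genes does not depend on scaling between libraries. With every peak given to its nearest TSS, Il13 held the largest share in every library, 61.5% and 50.1% in Ctrl and 55.1% and 50.4% in KO, most of it from the 3′ part of Rad50. The Rad50 promoter peak held 8.85% (exact 95% binomial interval 5.49 to 13.3) and 12% (8.93 to 15.7) of the locus counts in Ctrl, and 15.7% (11.9 to 20.2) and 15.3% (12 to 19.2) in KO. Both KO shares were the higher, with means of 10.4% ± 2.24 and 15.5% ± 0.253 (SD, n = 2 each). The Il4 share was 15.9% and 16.2% in Ctrl and 8.33% and 15.6% in KO. Both KO shares were the lower, the second of them by less than its counting interval of 12.2 to 19.4. With 2 libraries per group, the exact permutation test (two-sided) cannot go below 0.333, the value it gave for Rad50 and for Il4. The shares of Il5, Il13 and Kif3a overlapped between groups (exact permutation p = 1 each). For Il13 this depends on the peaks of the 3′ part of Rad50. With genes of all types used, these go to the pseudogene Rps2-ps4, and the remaining 2 peaks of Il13 held 13.8% ± 0.768 of the counts in Ctrl against 11.7% ± 0.246 in KO (SD, n = 2 each), with both KO shares lower (exact permutation p = 0.333). The 5 peaks of Il4 and Il13 together held 29.2% and 30.5% in Ctrl and 20.2% and 27.1% in KO, at means of 29.9% and 23.6%. These are the same peaks summed, so that both KO shares being lower follows from the parts and is no further test. The shares of a library also add up to the whole, so that they are not independent of one another. The intervals cover counting error only.

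**Figure D3:**
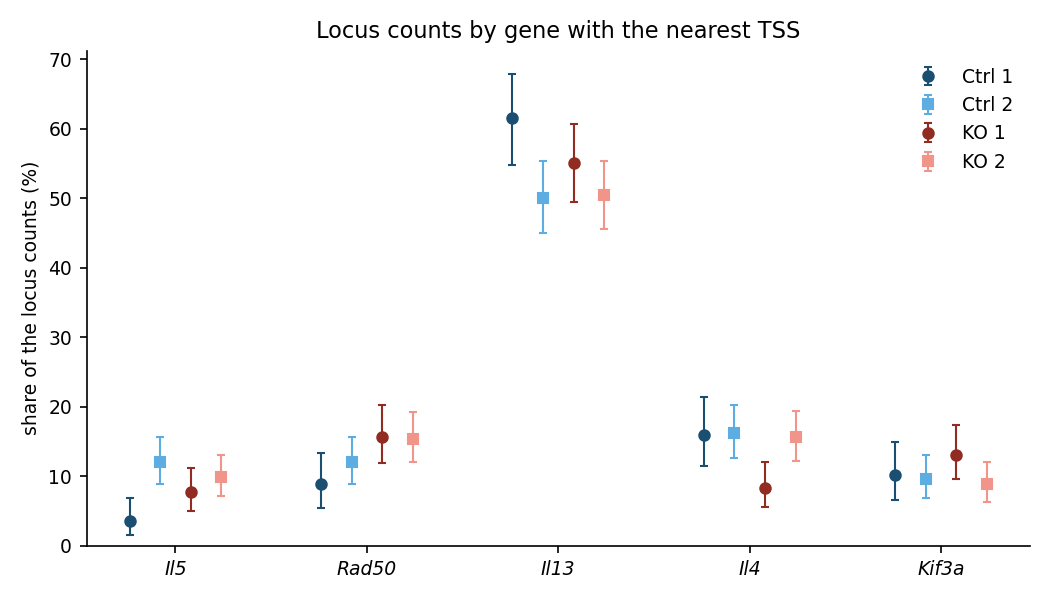
Share of the locus counts in percent (y axis) given to each gene by the nearest TSS in the 4 libraries, with exact 95% binomial intervals as bars. Il13, which takes in the peaks of the 3′ part of Rad50, holds 50.1% to 61.5%, and under this assignment the Ctrl and KO points do not overlap for Rad50 and Il4.

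The density of acetylation in peaks set the locus between 2 other cytokine regions. It was 0.575 and 0.641 CPM per kb of region in Ctrl and 0.654 and 0.562 in KO, against 0.396 to 0.414 over all chromosomes. The Il10 cluster (Il10, Il19, Il20 and Il24), whose first member is a main product of intestinal Treg cells, held 2.47 to 3.38 CPM per kb, above the locus in every library. The Il3 and Csf2 region, further along the same chromosome, held 0.149 to 0.223 CPM per kb, below the locus in every library. That region had only 2 peaks, of which 1 was tested. The locus value also takes in the promoter peaks of Rad50 and Kif3a, which are not cytokine genes. Ifng, the cytokine of Th1 cells, held 0.216 to 0.736 CPM per kb, a range that overlapped that of the locus. It had 5 peaks, of which 1 was tested. The locus held 10.7 peaks per 100 kb, against 4.56 over all chromosomes, which were not chosen about genes as these windows were. The Il10 cluster held 14.1, Ifng 20.2 and Il3 with Csf2 5.0. Peaks covered 6.77% of the locus, 18.7% of the Il10 cluster, 6.74% of Ifng and 3.06% of Il3 with Csf2.

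**Figure D4:**
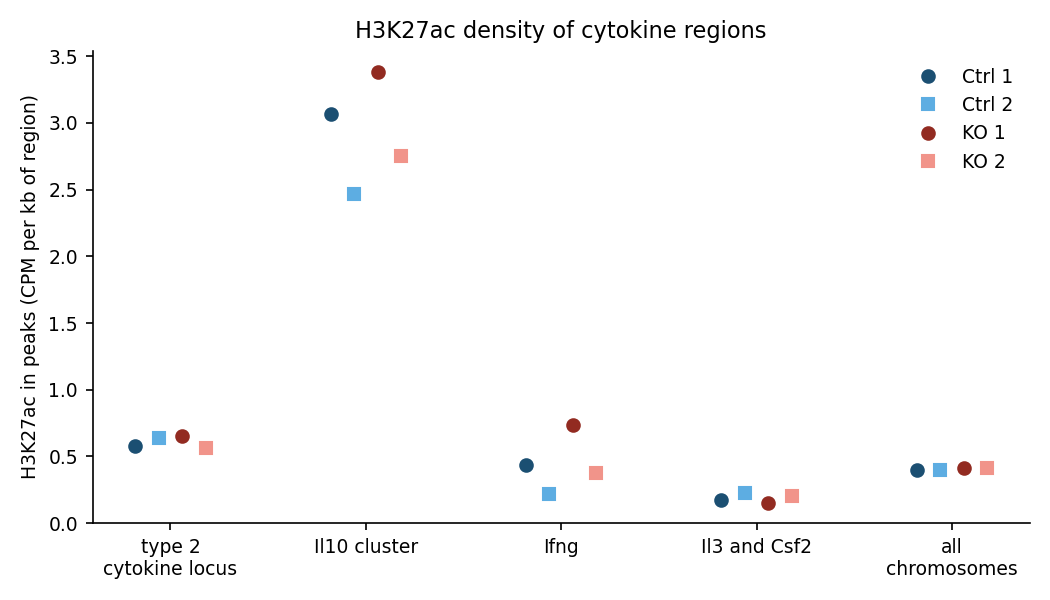
H3K27ac counts in peaks, in CPM per kb of region (y axis), in each of the 4 libraries for the type 2 cytokine locus, 3 other cytokine regions and all chromosomes together. The locus lies at 0.562 to 0.654 CPM per kb, below the Il10 cluster and above Il3 with Csf2.

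The other genes of the pathway were taken as a list of 55, of which 49 had peaks and were tested in the same gene fit. None passed at an adjusted p under 0.05 in edgeR, and 1 of the 49 had an unadjusted p under 0.05, against 2.98% of all genes. DESeq2 gave the same 2 counts. No peak was assigned to Il13ra1, Il13ra2, Il3, Il31 or Mre11a, and Ccni2 is not in the annotation used. By point estimate 35 were higher and 14 lower in KO, where 49.1% of all 12974 genes tested were higher. The median log2 fold change was 0.15 against -0.01 over all. With a loess offset on abundance, 30 of the 49 were higher, with a median of 0.06 against 0.01 over all genes. Under the main setting, both KO libraries were higher than both Ctrl libraries in 15, against 13.6% of all genes, and both were lower in 2, against 16.7%. Of the 21 factors that act on the locus, 19 were higher by point estimate, with a median of 0.21, against 13 with a loess offset on abundance (median 0.09, with 50.9% of all genes higher). With total counts as library size 15 were higher, but that scaling also moved all genes, of which 42.7% were then higher, with a median of -0.06. Of the 11 tested cytokine receptors and signalling genes, 9 were higher. The 5 alarmin receptors (2 higher), the 7 tested other type 2 cytokines and neighbours (4 higher) and the 3 partners of Kif3a (1 higher) were split.

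Gata3, the lead factor of Th2 cells that is also used by intestinal Treg cells, was at 240 and 234 CPM in Ctrl and 281 and 341 CPM in KO. Both KO libraries were the higher, and the log2 fold change was 0.39 (SE 0.21, 95% interval -0.07 to 0.86, edgeR adjusted p = 0.999). Tbx21, the lead factor of Th1 cells, had the highest log2 fold change of the list, 0.64 (SE 0.35, 95% interval -0.14 to 1.41), with 22.2 and 27.7 CPM in Ctrl and 29.4 and 47.9 CPM in KO. Il4ra, the receptor chain shared by IL-4 and IL-13, had a log2 fold change of 0.32 (SE 0.23), and Stat6, which carries its signal, of 0.17 (SE 0.25), both with overlapping groups. Irf1, the interferon-induced factor that neighbours Il5 on the chromosome, was at 73.7 and 87.5 CPM in Ctrl and 90.5 and 127 CPM in KO (log2 fold change 0.43, SE 0.26). Il1rl1, the IL-33 receptor of intestinal Treg cells, was at 66.5 and 65.2 CPM in Ctrl and 72.3 and 70.9 CPM in KO (log2 fold change 0.12, SE 0.25). This is a sum over 10 peaks. The paper reports less H3K27ac in KO at an intragenic enhancer region of Il1rl1, and a sum over the gene can hide a change at a single peak.

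Atm, the kinase that the Rad50 complex activates at DNA breaks, had the lowest value and the only unadjusted p under 0.05. Its sum over 8 peaks was 29.9 and 40.8 CPM in Ctrl and 14.9 and 16.5 CPM in KO. Both KO libraries lay well under both Ctrl libraries, and the log2 fold change was -1.17 (SE 0.35, 95% interval -1.94 to -0.39, unadjusted p = 0.00729 and edgeR adjusted p = 0.999). Nbn, another partner of Rad50, had a log2 fold change of -0.13 (SE 0.28) with overlapping groups.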

How the data were processed

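H3K27ac CUT&Tag libraries were sequenced as paired ends. After trimming, the authors used Bowtie2 for alignment to mm10, kept unique alignments without duplicates, called peaks with MACS2 over IgG and joined those of all libraries with bedtools. The deposited values are raw counts per merged peak, with no normalization. Tool versions are not given in the sources used here. Since the peaks were called on the libraries that are compared, the peak set depends on their signal. The IgG library was not analysed here.

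Peaks with at least 10 counts in 2 of 4 libraries were tested with edgeR 4.0.16 (R 4.3.3), TMM scaling and Benjamini-Hochberg adjustment. The script was tested on simulated data. CPM are counts per 1000000 counts in tested peaks, scaled by TMM. Gene sums used the same library sizes, GENCODE M21 genes and a limit of 10 kb. Promoter peaks lie within 3 kb of a TSS. The 5 genes, all tested peaks of the window, pathway genes at an unadjusted p under 0.05, the highest and lowest of them and Il1rl1, Gata3, Stat6, Il4ra and Irf1 were named. The members and lists were chosen with earlier results of these data known. DESeq2 1.42.0, other scalings and filters, a replicate block and leaving out each library were the alternatives.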

Additional observations from a re-analysis of the deposited data

How the results depend on the processing

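No peak of the locus and none of the 5 gene sums passed at an adjusted p under 0.05 under any setting run, and no locus peak had an unadjusted p under 0.05 under any of them. No locus peak has 50 counts in 2 libraries, so that stricter filter gave no value for the peaks. The Il5 sum turned to -0.03 with halved counts, and the median of the tested locus peaks was -0.05 with any count, over all 19 peaks. The peak 50.2 kb into Rad50 turned to 0.03 with any count and to 0.05 with the replicate block. In the pathway list, 2 genes had an unadjusted p under 0.05 with any count.

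The replicate numbers were not taken to pair the libraries: the difference of replicate 1 from 2 in Ctrl correlated with that in KO over tested peaks at r = 0.24, with only 2 pairs and no label that ties them. With the replicate block, 10 pathway genes passed at an adjusted p under 0.05 and 18 at an unadjusted p under 0.05, where 5.26% and 17.6% of all 12974 genes did. The block changed no call at the locus.

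Without 1 library, log2 fold changes ran from -0.55 to 1.37 for Il5, 0.28 to 0.89 for Rad50, -0.4 to -0.1 for Il13, -0.87 to -0.18 for Il4 and -0.29 to 0.48 for Kif3a, with the sign turned for Il5 without Ctrl 1 or KO 2 and for Kif3a without KO 1. Under the scaling alternatives, 5 locus peaks were higher and 5 lower as before. Without 1 library, the median of the tested locus peaks ran from 0.01 to 0.28, and the pathway genes at an unadjusted p under 0.05 from 1 to 5, 5 without KO 1. The values ran from -1.26 (without KO 1) to -0.21 (without KO 2) for the peak between Il4 and Il13, 0.37 to 0.78 for the peak 44.1 kb into Rad50, 0.28 to 0.89 for the Rad50 promoter peak, and -1.72 (without KO 1) to -0.73 (without KO 2) for the peak 52.2 kb into Rad50, which failed the filter when either Ctrl library was left out. The other peaks ran from -0.07 to 0.59 (Kif3a promoter, turned without KO 1), -0.87 to 0.3 (Il4 promoter, turned without Ctrl 2 or KO 1), -0.86 to 0.88 (55.7 kb into Rad50, turned without KO 1), -0.47 to 0.57 (50.2 kb into Rad50, turned without Ctrl 1 or KO 1), -0.73 to 0.01 (farther Il5 peak, turned without KO 2) and -0.2 to 1.11 (nearer Il5 peak, turned without Ctrl 1). The farther Il5 peak failed the filter without Ctrl 2 or KO 1, and the nearer without Ctrl 2 or KO 2, so that their ranges cover only the remaining runs. The cause of the turns in sign was not tested. The locus held 226 to 417 counts per library, and the SEs of its tested peaks, which also take in the spread between pools, were 0.44 to 0.91. The values therefore leave room for true differences anywhere within the intervals given.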
